A study of Mus musculus with 12 samples.

Results

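The cytosolic aminoacyl-tRNA synthetases and the other genes of the amino acid response run by the transcription factor ATF4 were described in BCR::ABL1-expressing and control murine stem and progenitor cells. The group was chosen by name: 36 of the 56748 genes in the deposited counts, of which 19 encode cytosolic synthetases and 17 encode ATF4, its partners and its other targets. All 36 were matched to an Ensembl ID and all 36 passed the filter on low counts. Symbols are given in their newer form, so that Aars1 stands for what older annotations call Aars.

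Bulk RNA-seq was performed on 12 libraries, 6 labelled CTRL and 6 labelled CML 2wk. All came from SCLtTA/BCR-ABL double transgenic (DTG) donor cells, in which a tetracycline (TET)-off transactivator under the SCL promoter, active in stem and progenitor cells, drives human BCR::ABL1. Frozen bone marrow pooled from DTG mice of both sexes (CD45.2) was transplanted into irradiated B6.SJL recipients (CD45.1) aged 8 to 12 weeks, and donor CD45.2+Lin-Sca+Kit+ cells were sorted from the recipients' marrow. Both groups received TET while the graft recovered. CTRL mice then stayed on TET, which holds BCR::ABL1 off, and CML 2wk mice were without it for 2 weeks.

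Aminoacyl-tRNA synthetases join each amino acid to its tRNA, and several of those in the cytosol assemble with the scaffold proteins AIMP1, AIMP2 and EEF1E1. When uncharged tRNA, unfolded protein, haem shortage or double-stranded RNA activates one of the eIF2α kinases, general translation falls while Atf4 mRNA is translated more, and ATF4 with a C/EBP partner binds composite sites at genes for amino acid carriers, asparagine, serine and proline synthesis, and a subset of the synthetases. Since the cells of a growing blood lineage need charged tRNA for protein synthesis in any case, a synthetase that belongs to the ATF4 subset and one that does not are set side by side here.

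Depth was 22804754 to 41832868 counts per CTRL library and 16150817 to 25070105 per CML 2wk library. The share of counts from mitochondrial genes was 0.816% to 1.29% in CTRL and 2.26% to 2.97% in CML 2wk, without overlap, and its part in the results was not tested. Among LSK and stem cell markers 8 of 9 were lower in CML 2wk (88.9%, against 29.0% of all genes) and 0 were higher (against 30.6%). Kit, which was used for the sort, had a log2 fold change of -0.86 (SE 0.101, adjusted p = 4.68e-06), and Ly6a (Sca-1) one of 0.38 (SE 0.170, adjusted p = 0.066). The summed level of 5 mature lineage markers was 12.6 to 34.3 CPM (counts per 1000000 counts) in CTRL and 6.68 to 14.2 CPM in CML 2wk. Mast cell and basophil markers were higher for 6 of 8 genes (75%), among them Cpa3 (log2 fold change 2.57, adjusted p = 2.70e-05). Their sums were 76.4 to 168 CPM in CTRL and 399 to 2279 CPM in CML 2wk. Monocyte and neutrophil markers were higher for 4 of 8 genes (50%), among them Mpo (log2 fold change 0.67, adjusted p = 0.0195), and lower for 1 (12.5%). Their sums were 2050 to 3306 CPM in CTRL and 2126 to 5900 CPM in CML 2wk. The labels call the CTRL mice male and the CML 2wk mice female, but Xist was at 3794 to 4425 CPM in CTRL and 2183 to 3502 CPM in CML 2wk, and the Y-linked Ddx3y did not exceed 0.588 CPM in CTRL or 8.64 CPM in CML 2wk. As labelled, sex and BCR::ABL1 cannot be told apart.

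CML 2wk replicate 6 had the highest CML 2wk level of all 17 ATF4 genes outside the synthetases, so the values of these genes are also given without it. CML 2wk replicates 2 and 4 had summed stromal marker levels of 2888 and 532 CPM, against 66.8 to 86.5 CPM in the other 4 CML 2wk libraries and 100.2 to 136 CPM in CTRL. CTRL replicate 2 had the lowest CTRL level of 17 of 19 synthetases, where it was the lowest for 27.3% of all genes tested.

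The background was wide. The quasi-likelihood test of edgeR called 59.5% of 18438 genes at an adjusted p under 0.05, 30.6% higher and 29.0% lower in CML 2wk, with a median log2 fold change of 0.07 over all genes. The CPM of the groups did not overlap for 17% of genes in the higher direction and for 20.6% in the lower. In bulk RNA, fewer cells of a type and less RNA per cell cannot be told apart.

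The synthetases moved little and not as a block. In CML 2wk 5 of 19 were higher (26.3%) and 2 were lower, both shares under the background, and 12 did not pass the test. The median log2 fold change was 0.15. Apart from the 5 that passed upward (Mars1, Rars1, Gars1, Sars1 and Farsb) and the 2 that passed downward (Vars1 and Wars1), values ran from -0.21 for Qars1 to 0.31 for Cars1.

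**Figure D1:**
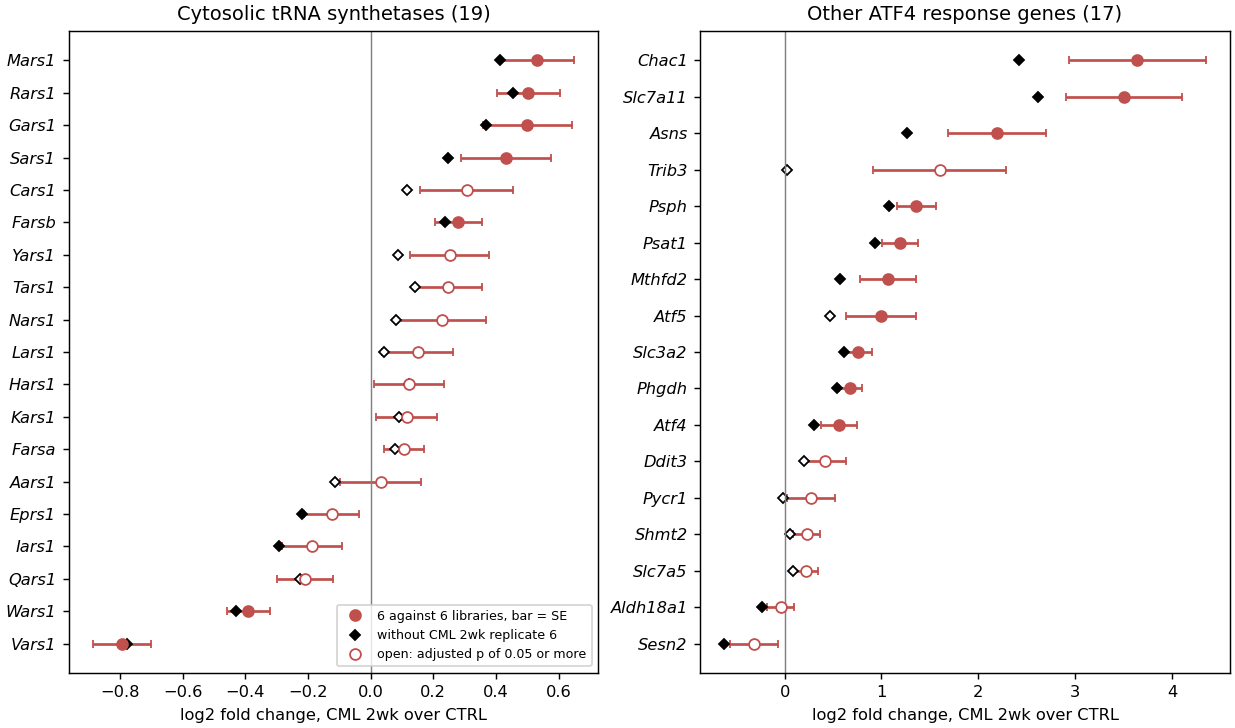
Log2 fold change of CML 2wk over CTRL for 19 cytosolic synthetases (left) and the 17 other ATF4 response genes (right), on separate horizontal scales. Circles are the 6 against 6 comparison with its SE and diamonds the same without CML 2wk replicate 6, and open symbols did not pass an adjusted p of 0.05. Synthetases lie between -0.79 and 0.53, while Chac1 and Slc7a11 exceed 3, and Trib3 moves from 1.60 to 0.02 without that library.

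Mars1, which charges methionine for initiation as well as elongation, was at 87.4 to 107 CPM in CTRL (median 95.3) and 112 to 190 CPM in CML 2wk (median 125). The groups did not overlap (log2 fold change 0.53, SE 0.117, adjusted p = 0.00124). Mars1 overlaps Ddit3 on the opposite strand, and whether reads were counted by strand is not given in the sources used here. Rars1, for arginine, was at 78.2 to 94.8 CPM in CTRL (median 90.4) and 101 to 158 CPM in CML 2wk (median 120). Its groups did not overlap either, with a log2 fold change of 0.50 (SE 0.101, adjusted p = 0.000572), and its highest library was CML 2wk replicate 1. Gars1, for glycine, was at 108 to 132 CPM in CTRL (median 127) and 133 to 245 CPM in CML 2wk (median 161). The lowest CML 2wk library lay just above the highest CTRL library, and the log2 fold change was 0.50 (SE 0.142, adjusted p = 0.00716).

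Sars1, for serine, was at 66.3 to 77.3 CPM in CTRL (median 73.7) and 74.4 to 155 CPM in CML 2wk (median 91.7). The ranges overlapped at their edge and CML 2wk replicate 6 was the highest, and the log2 fold change of 0.43 (SE 0.144, adjusted p = 0.0183) became 0.25 without that library (adjusted p = 0.017). Farsb, the beta subunit of the phenylalanine enzyme, was at 63.9 to 78.5 CPM in CTRL (median 75.3) and 75.2 to 98.3 CPM in CML 2wk (median 89.9), with a log2 fold change of 0.28 (SE 0.0744, adjusted p = 0.00467). Its partner Farsa, the alpha subunit, had a value of 0.11 (adjusted p = 0.157).

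Both synthetases that fell did so without overlap. Vars1, for valine, was at 400 to 434 CPM in CTRL (median 424) and 183 to 295 CPM in CML 2wk (median 248). It was the gene with the steadiest level in CTRL among the synthetases (CV 2.88%), and it fell by 0.79 on the log2 scale (SE 0.0928, adjusted p = 4.55e-06). Wars1, for tryptophan, which is also induced by interferon, was at 75.5 to 85.4 CPM in CTRL (median 81.9) and 52.5 to 68.5 CPM in CML 2wk (median 61.0), and fell by 0.39 (SE 0.0678, adjusted p = 0.000176). Neither call changed in any alternative fit.

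**Figure D2:**
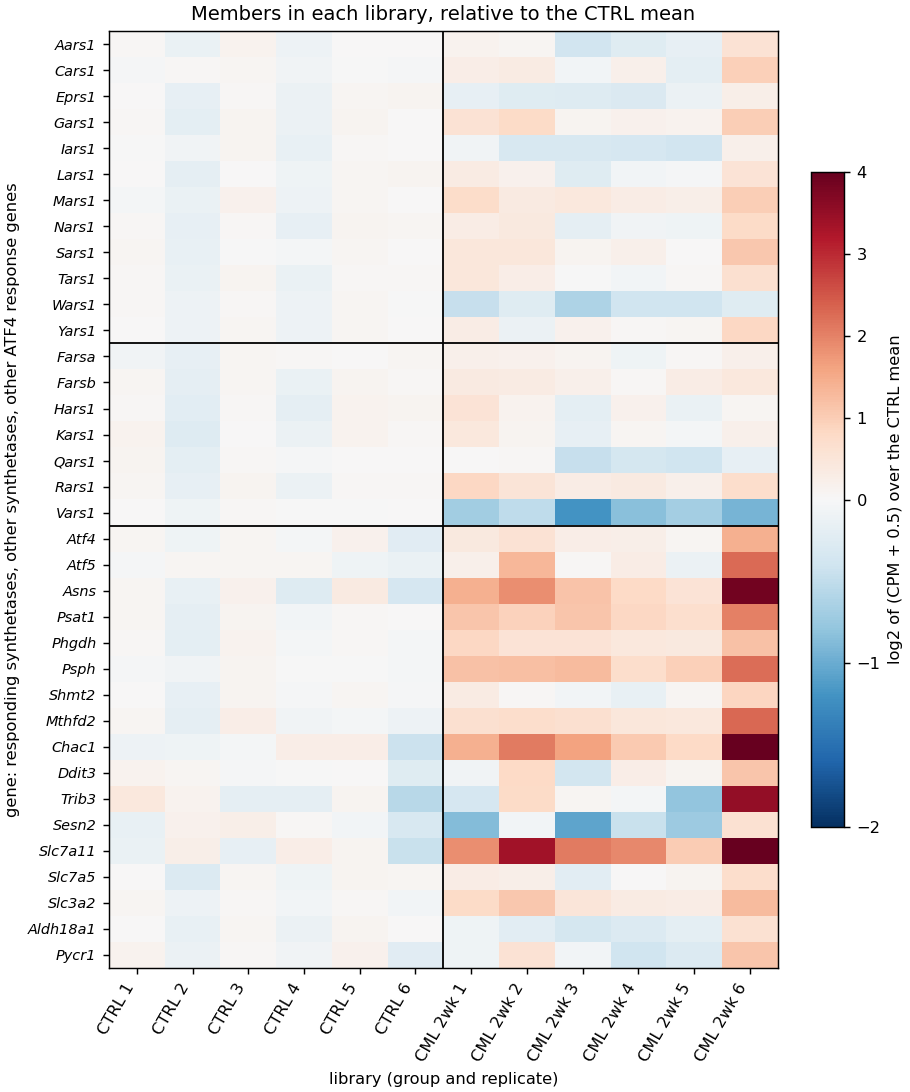
The 36 genes in each of the 12 libraries as log2 of CPM plus 0.5 over the CTRL mean of the same quantity; horizontal lines divide the 12 responding synthetases, 7 other synthetases and the 17 other ATF4 response genes. The column of CML 2wk replicate 6 is the reddest CML 2wk cell of each row for all 17 genes of the lowest block, and Vars1 and Wars1 are blue in every CML 2wk library.

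The synthetases were divided in 3 ways by textbook knowledge. Of 12 known to respond to ATF4 (Aars1, Cars1, Eprs1, Gars1, Iars1, Lars1, Mars1, Nars1, Sars1, Tars1, Wars1 and Yars1), 3 were higher and 1 was lower, with a median log2 fold change of 0.24. Of 7 others, 2 were higher and 1 was lower, with a median of 0.12. Without CML 2wk replicate 6 the medians were 0.08 for the responding synthetases (3 higher and 3 lower) and 0.09 for the others (2 higher and 1 lower), so the higher median of the responding genes rested on that library. By structural class, the 10 class I enzymes held 2 higher and 2 lower genes around a median of 0.01. The 9 genes of class II enzymes held 3 higher and 0 lower genes around a median of 0.23, with all 9 fold changes above 0. Of all genes tested 53.5% had a log2 fold change above 0. Eprs1 carries a class I and a class II enzyme in 1 protein and was counted under class I only. Its value of -0.12, or -0.22 and called lower without CML 2wk replicate 6, is thus not among the class II values. Without CML 2wk replicate 6 the class medians were -0.09 (2 higher and 4 lower) and 0.12 (3 higher and 0 lower). Of the class II values Aars1 had the smallest, at 0.03, and it was below 0 in 3 of 20 alternative fits. Of 7 synthetases of the multisynthetase complex 2 were higher (Mars1 and Rars1), and Qars1, Eprs1 and Iars1 had values of -0.21, -0.12 and -0.19. Called higher were 25% of the responding and 28.6% of the other synthetases, 20% of class I, 33.3% of class II and 28.6% of the complex. Of all genes 30.6% were higher. Called lower were 8.33%, 14.3%, 20%, 0% and 0% in the same order, against 29.0% of all genes. These divisions are counts and medians, and the differences between them were not tested.

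All 3 scaffold genes of that complex rose. Aimp1 was at 45.5 to 57.7 CPM in CTRL (median 50.4) and 74.6 to 115 CPM in CML 2wk (median 88.4), a log2 fold change of 0.82 (adjusted p = 2.57e-06). Aimp2 had a log2 fold change of 0.73 (adjusted p = 1.82e-05) and Eef1e1 one of 1.33 (adjusted p = 1.03e-07). None of the 3 overlapped between groups, where 17% of all genes did not overlap in the higher direction.

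The mitochondrial synthetases, which are encoded in the nucleus and charge the tRNAs of the mitochondrial ribosome, moved in both directions. Of 17 genes 8 were higher (47.1%, against 30.6% of all genes) and 5 lower (29.4%, against 29.0%), with a median of 0.13. Yars2 (0.89, SE 0.0893, adjusted p = 1.06e-06), Nars2 (0.76, SE 0.0895, adjusted p = 4.89e-06), Iars2 (0.45) and Fars2 (0.24) were higher without overlap. Vars2 (-0.69, SE 0.0664, adjusted p = 7.72e-07) and Ears2 (-0.44) were lower without overlap. For valine both the cytosolic and the mitochondrial enzyme were thus lower, while for tyrosine Yars1 had a value of 0.25 (adjusted p = 0.102) beside the higher Yars2.

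The 17 other ATF4 response genes stood differently. In CML 2wk 10 were higher (58.8%, against 30.6% of all genes) and 0 were lower (against 29.0%). The other 7 did not pass the test, and the median log2 fold change was 0.75. The groups did not overlap for 8 of the 17, where 17% of all genes did not overlap in the higher direction. The 8 were Asns, Psat1, Phgdh, Psph, Mthfd2, Chac1, Slc7a11 and Slc3a2.

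Among the regulators, Atf4 itself was at 103 to 135 CPM in CTRL (median 121) and 125 to 319 CPM in CML 2wk (median 150). The ranges overlapped, and the log2 fold change was 0.57 (SE 0.186, adjusted p = 0.0168). CML 2wk replicate 6 lay far above the next library at 178 CPM, and without it the value was 0.30 (adjusted p = 0.00892). Because ATF4 is controlled mainly at translation, its mRNA level is only part of its regulation. Atf5, a related factor under the same translational control, was at 7.47 to 8.75 CPM in CTRL (median 8.33) and 7.58 to 41.1 CPM in CML 2wk (median 9.92). Replicates 6 and 2 (21.2 CPM) were the highest, and the log2 fold change of 1.00 (SE 0.359, adjusted p = 0.0269) was 0.46 without replicate 6 (adjusted p = 0.0902). Atf5 shares exonic sequence with Nup62 and Il4i1 on the other strand.

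Trib3, a pseudokinase that binds ATF4 and damps it, rested on 1 library. It was at 2.08 to 4.58 CPM in CTRL (median 3.21) and 1.69 to 5.95 CPM in 5 CML 2wk libraries, with 42.7 CPM in CML 2wk replicate 6. The log2 fold change was 1.60 (SE 0.685, adjusted p = 0.0566), and without that library it was 0.02 (SE 0.291, adjusted p = 0.95). Ddit3, which encodes CHOP, was at 7.85 to 10.5 CPM in CTRL (median 9.37) and 7.17 to 20.7 CPM in CML 2wk (median 10.7). Its ranges overlapped and its log2 fold change was 0.42 (SE 0.217, adjusted p = 0.111), or 0.20 without replicate 6. Ddit3 and Mars1 overlap only at their ends, from 127296221 to 127296288 on chromosome 10 (GRCm38), and reads there may belong to either gene. A second Ddit3 entry held no counts.

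The enzymes that make serine and carry its carbon into folate were the most regular block, 4 of 5 being higher without overlap (against 17% of all genes). Phgdh, the first step from 3-phosphoglycerate, was at 157 to 197 CPM in CTRL (median 181) and 236 to 404 CPM in CML 2wk (median 263), a log2 fold change of 0.68 (SE 0.119, adjusted p = 0.000198). Psat1, the aminotransferase that follows, was at 138 to 170 CPM in CTRL (median 160) and 252 to 645 CPM in CML 2wk (median 320), a log2 fold change of 1.19 (SE 0.185, adjusted p = 6.40e-05). Psph, the phosphatase that releases serine, was at 19.1 to 21.9 CPM in CTRL (median 19.8) and 32.6 to 95.2 CPM in CML 2wk (median 46.3), a log2 fold change of 1.36 (SE 0.200, adjusted p = 3.91e-05). In each of the 3 steps all CML 2wk libraries were above all CTRL libraries, and without replicate 6 the values were 0.55, 0.93 and 1.08. Psph shares exonic sequence with Cct6a, a highly counted gene on the other strand.

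Mthfd2, a mitochondrial folate enzyme, was at 23.4 to 32.4 CPM in CTRL (median 25.7) and 36.0 to 135 CPM in CML 2wk (median 41.9). The other 5 CML 2wk libraries lay close together, at 36.0 to 44.0 CPM, and the log2 fold change of 1.06 (SE 0.289, adjusted p = 0.00548) was 0.58 without replicate 6 (adjusted p = 6.63e-05). Shmt2, which moves the carbon from serine to folate in the same organelle, was at 132 to 161 CPM in CTRL (median 148) and 134 to 269 CPM in CML 2wk (median 155), with a log2 fold change of 0.23 (SE 0.140, adjusted p = 0.173), or 0.05 without replicate 6.

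Asns, asparagine synthetase, was at 8.23 to 13.7 CPM in CTRL (median 10.2) and 15.7 to 160 CPM in CML 2wk (median 26.3). The groups did not overlap, and the log2 fold change was 2.19 (SE 0.502, adjusted p = 0.00167). Without CML 2wk replicate 6 the highest library was replicate 2 at 39.6 CPM and the value was 1.26 (SE 0.213, adjusted p = 0.000189). The proline genes did not follow Asns: Aldh18a1, for the first steps from glutamate, had a value of -0.04 (adjusted p = 0.82), and Pycr1, for the last, 0.27 (adjusted p = 0.361). Without replicate 6 Aldh18a1 fell by 0.23 (adjusted p = 0.00856) and Pycr1 was at -0.02.

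Slc7a11, the exchange subunit that imports cystine for glutathione, was at 0.868 to 1.74 CPM in CTRL (median 1.35) and 3.26 to 50.7 CPM in CML 2wk (median 6.96). Its lowest CML 2wk library, replicate 5, was above all CTRL libraries, and the log2 fold change was 3.50 (SE 0.595, adjusted p = 0.000146), or 2.61 without replicate 6. Slc3a2, the heavy chain that Slc7a11 and Slc7a5 share, was at 87.4 to 98.8 CPM in CTRL (median 94.0) and 116 to 224 CPM in CML 2wk (median 146), a log2 fold change of 0.75 (SE 0.145, adjusted p = 0.000418) without overlap, or 0.62 without replicate 6. Slc7a5, its light chain for leucine and other large neutral amino acids, had a value of 0.22 (SE 0.127, adjusted p = 0.149), or 0.09 without replicate 6.

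Chac1, which degrades glutathione, had the largest log2 fold change of the 36 in the 6 against 6 comparison. Without replicate 6 that of Slc7a11 was larger (2.61). Chac1 was at 0.113 to 0.487 CPM in CTRL (median 0.288) and 0.938 to 15.7 CPM in CML 2wk (median 1.86), with as few as 3 counts in a CTRL library. All CML 2wk libraries were above all CTRL libraries, and the log2 fold change was 3.64 (SE 0.702, adjusted p = 0.00043), or 2.42 without replicate 6 (SE 0.380, adjusted p = 9.93e-05). Sesn2, which holds mTORC1 in check when leucine is short, was at 11.7 to 17.4 CPM in CTRL (median 14.7) and 6.80 to 22.9 CPM in CML 2wk (median 9.72). Its value of -0.31 (SE 0.247, adjusted p = 0.29) did not pass, but without replicate 6 it fell by 0.62 (SE 0.177, adjusted p = 0.00815).

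**Figure D3:**
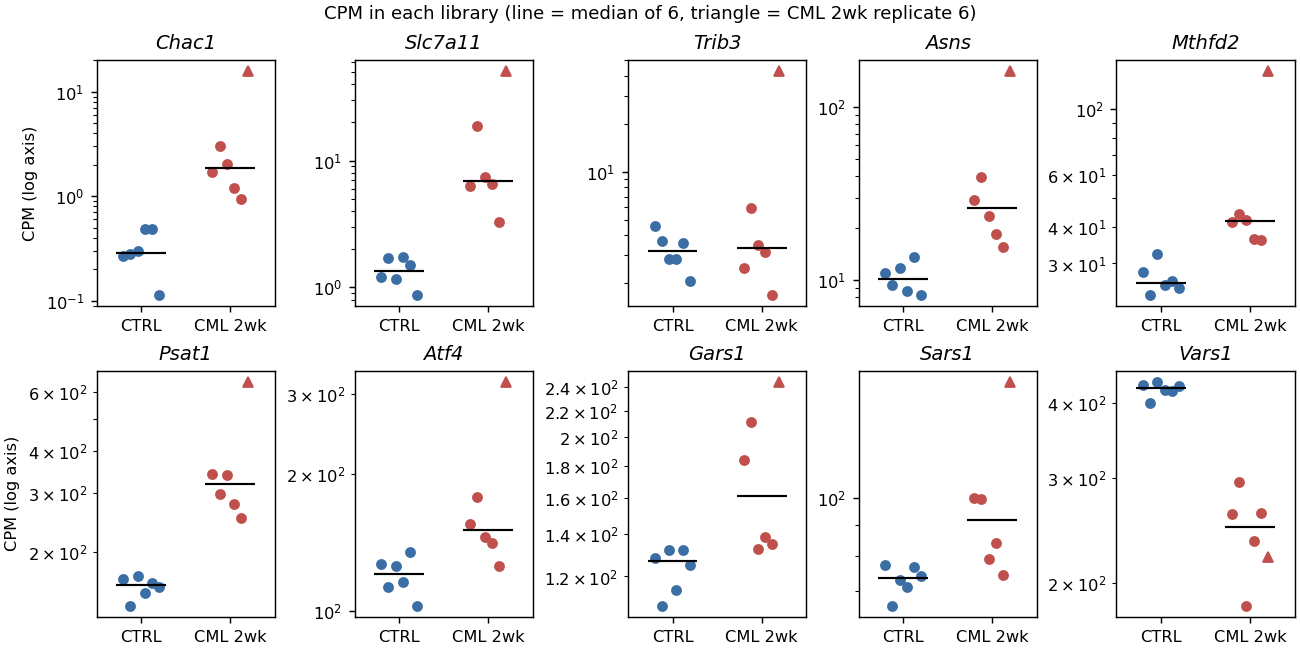
CPM of 10 of the genes in each library on log axes that differ between panels, with the median of each group as a line and CML 2wk replicate 6 as a triangle. The triangle is the highest CML 2wk point in 9 panels; in the panel for Vars1 it is the second lowest, at 221 CPM, and all CML 2wk points lie below CTRL.

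Some promoters of these genes carry the composite site to which ATF4 and a C/EBP factor bind, and they are shown because the genes that share it were called differently in CML 2wk. The 8-letter motif TGATGNAA was searched on both strands from 250 bases before to 50 bases after each RefSeq transcript start (GRCm38.p6); it was found in 3.97% of all promoters and at 4.51% of all genes with one. A promoter was in the table for 28 of the 36 genes, and Cars1, Hars1, Lars1, Nars1, Rars1, Vars1, Wars1 and Slc7a5 had no entry. Capitals mark the match, read 5′ to 3′ on the strand of the gene, and TTNCATCA is the same motif on the opposite strand.
Asns, minus strand, chr6:7693210-7693258: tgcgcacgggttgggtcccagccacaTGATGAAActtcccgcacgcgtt
Slc7a11, minus strand, chr3:50443646-50443705: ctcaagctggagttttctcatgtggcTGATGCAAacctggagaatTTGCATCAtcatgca
Chac1, plus strand, chr2:119351023-119351082: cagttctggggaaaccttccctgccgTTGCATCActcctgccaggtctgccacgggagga
Pycr1, minus strand, chr11:120643818-120643877: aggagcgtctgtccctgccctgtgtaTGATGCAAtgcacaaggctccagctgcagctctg
Gars1, plus strand, chr6:55037945-55038000: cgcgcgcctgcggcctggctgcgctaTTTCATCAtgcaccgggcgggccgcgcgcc
Aars1, plus strand, chr8:111033704-111033763: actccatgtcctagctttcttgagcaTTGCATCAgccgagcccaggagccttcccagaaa
Tars1, minus strand, chr15:11399659-11399699: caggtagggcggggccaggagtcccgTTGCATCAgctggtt

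Matches stood before the start by 23 bases at Asns, 66 and 47 at Slc7a11, 193 at Chac1, 103 at Pycr1, 30 at Gars1, 112 at Aars1 and 15 at Tars1. Yars1, Iars1 and Trib3 had a match after the start, as Aars1 did a second time. Among the synthetases 5 of 12 promoters held the motif (41.7%), all 5 within the 8 responding synthetases that have a promoter entry (62.5%), and 0 of 4 among the other synthetases. Among the other ATF4 genes it was 5 of 16 (31.2%), and among mitochondrial synthetases 0 of 14. The 10 genes with a match had fold changes over the whole range: Chac1, Slc7a11, Asns and Gars1 were higher, while Aars1, Iars1, Tars1, Yars1, Trib3 and Pycr1 did not pass the test. Psat1, Phgdh, Psph and Mthfd2 rose and these letters were not found in their windows.

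CML 2wk replicate 6 set the spread of the ATF4 genes. It was the highest CML 2wk library for 17 of the 17 ATF4 genes and for 13 of the 19 synthetases, where it was the highest for 19.4% of all genes tested. Against the median of the other 5 CML 2wk libraries it was 13.6 times higher for Trib3, 9.23 times for Chac1, 7.79 times for Slc7a11, 6.80 times for Asns, 4.32 times for Atf5 and 3.23 times for Mthfd2, and the median ratio over the 17 genes was 2.20.

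The synthetases in this library differed between the lists. It was the highest CML 2wk library for 11 of 12 responding synthetases, the exception being Wars1, with ratios to the other 5 of 1.11 to 1.85 and a median of 1.62. It was the highest for 2 of 7 other synthetases (Farsa and Farsb), with a median ratio of 1.08. Vars1 had the lowest ratio, at 0.847. This is 1 library, and the difference was not tested.

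**Figure D4:**
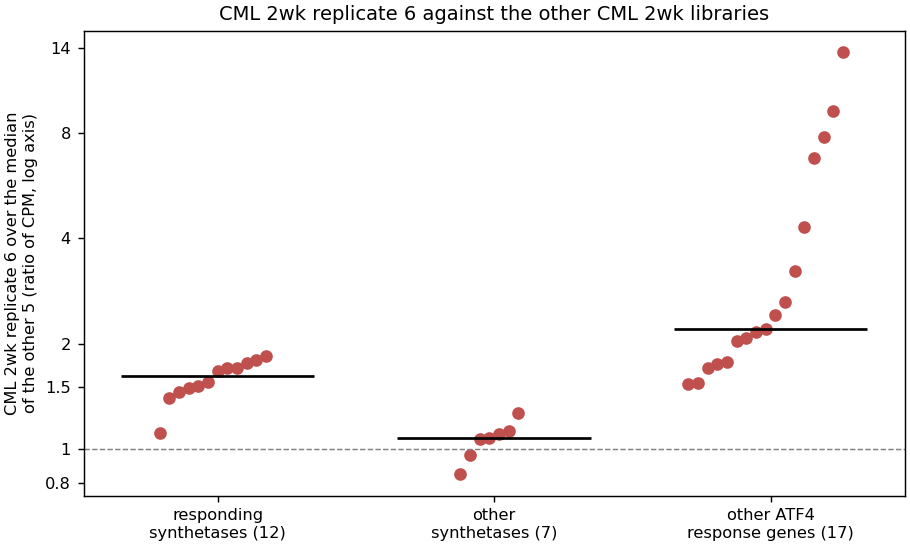
Ratio of the CPM in CML 2wk replicate 6 to the median CPM of the other 5 CML 2wk libraries, on a log axis, 1 point a gene, for the 12 responding synthetases, 7 other synthetases and the 17 other ATF4 response genes. Lines are medians, at 1.62, 1.08 and 2.20, and the dashed line marks equal levels.

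The rise was not seen in CTRL replicate 6, but replicate numbers did not pair the libraries, so that library is not a matched control. CTRL replicate 6 was the lowest CTRL library for 9 of the 17 ATF4 genes and the highest for 0, against 18.4% and 17.9% of all genes tested. In CML 2wk replicate 6 the summed mast cell and basophil markers were the lowest of the group (399 CPM), the summed monocyte and neutrophil markers the highest (5900 CPM) and the stromal sum 68.0 CPM, with 2 of 8 stromal markers at 0. The monocyte and neutrophil markers did not move together in this library. Mpo (3975 CPM), Elane (996 CPM) and Ly6c2 (317 CPM) were at their highest of all libraries. Ltf (0.0493 CPM) was at its lowest, Csf1r (21.4 CPM) was below every CTRL library, and Ccr2, Lyz2 and S100a8 were at neither end. The part of these cell type markers in the result was not tested.

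Without CML 2wk replicate 6, edgeR called 29.4% of genes higher and 28.9% lower. Of the synthetases the count was then 5 higher and 4 lower, with Eprs1 (-0.22, adjusted p = 0.00909) and Iars1 (-0.29, adjusted p = 0.00213) joining Vars1 and Wars1, and the median was 0.09. Of the ATF4 genes 9 were higher and 2 lower (Sesn2 and Aldh18a1), with a median of 0.46. Other single libraries also decided calls near the threshold. Atf5 did not pass without CTRL replicate 5 or CTRL replicate 6. Trib3 passed when any one of CML 2wk replicates 1 to 5 was left out, Tars1 without CML 2wk replicate 3, 4 or 5, and Qars1 (lower) without CTRL replicate 2 or CML 2wk replicate 1 or 2. Cars1 passed without CML 2wk replicate 5, Yars1 without CML 2wk replicate 2, and Ddit3 and Slc7a5 without CML 2wk replicate 3. In the absence of CML 2wk replicate 6, CML 2wk replicate 2 was the highest CML 2wk library for many of the ATF4 genes. These were Atf4, Atf5, Asns, Mthfd2, Chac1, Ddit3, Trib3, Sesn2, Slc7a11, Slc3a2 and Pycr1. With replicate 6 kept, replicate 2 was the highest CML 2wk library for 24.3% of all genes tested. It is also the library with the highest stromal sum (2888 CPM), whose part was not tested.

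The spread between libraries was wider in CML 2wk. The median CV of the synthetases was 7.18% in CTRL and 19.1% in CML 2wk, beside 10.1% and 21.1% over all genes tested. For the ATF4 genes it was 9.6% in CTRL and 43.3% in CML 2wk, and 23.8% in CML 2wk without replicate 6. Trib3 had the widest spread in CML 2wk, with a CV of 163%.

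Further genes known as ATF4 or CHOP targets ranged as widely. Of 24 listed genes 21 were tested, 11 were higher (52.4%, against 30.6% of all genes) and 3 lower (14.3%, against 29.0%). The median log2 fold change was 0.65, and it was 0.20 without CML 2wk replicate 6 and 0.32 without CML 2wk replicate 2. Cth, cystathionine gamma-lyase, was at 0.0793 to 0.337 CPM in CTRL and 0.488 to 1.88 CPM in 5 CML 2wk libraries, with 39.5 CPM in replicate 6 (log2 fold change 5.25, SE 1.23, adjusted p = 0.00192). Without replicate 6 the log2 fold change of Cth was 2.23 (SE 0.442, adjusted p = 0.000671). Stc2, a secreted glycoprotein induced in stress, was at 0 to 0.266 CPM in CTRL, at 0.680 to 0.922 CPM in 4 CML 2wk libraries and at 15.9 and 25.3 CPM in replicates 2 and 6 (adjusted p = 0.000279). Both were without overlap, but a few counts in each CTRL library carry these fold changes. Cbs, which makes cystathionine (0.84, adjusted p = 0.0033), and Vldlr, a lipoprotein receptor (0.70, adjusted p = 0.000213), were higher without overlap and did not have their highest level in replicate 6. Slc38a2, a carrier of small neutral amino acids, was lower without overlap (-0.43, SE 0.0706, adjusted p = 0.000109).

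**Figure D5:**
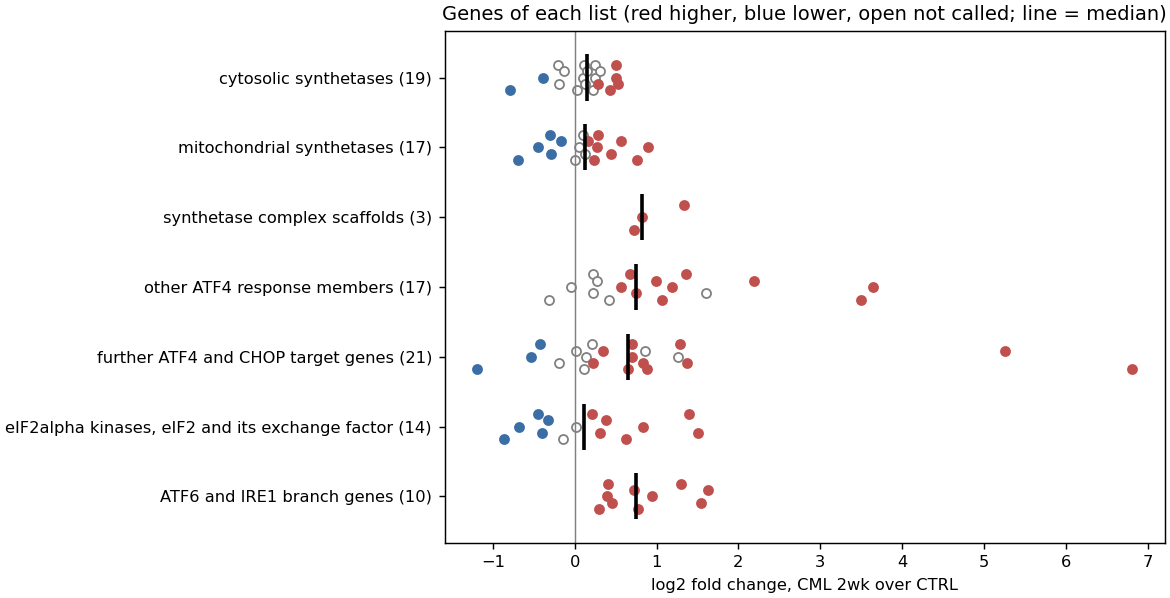
Log2 fold change of CML 2wk over CTRL for the tested genes of 7 lists, 1 point a gene with the list's median as a line; red points were called higher, blue lower and open points were not called. The cytosolic and mitochondrial synthetases centre near 0 (medians 0.15 and 0.13), and the ATF4 response genes and the ATF6 and IRE1 genes lie further right (0.75 for each).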

How the data were processed

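The deposited values are raw counts per Ensembl gene, 1 file per library. The submitters' processing notes name FastQC 0.11.9, fastp 0.23.2, STAR 2.7.10a, featureCounts 2.0.1, DESeq2 1.36.0 and mm39 (GRCm39), while the study's methods name Trim Galore! and HISAT2; annotation, strand setting and the treatment of multimapping reads are not given in the sources used here. Reads of the 10 members with exons that overlap another gene are therefore uncertain. Symbols were taken from GENCODE M21 for 52073 of 56748 IDs, and promoters from RefSeq GRCm38.p6.

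CTRL and CML 2wk were compared with the quasi-likelihood F-test of edgeR 4.0.16 in R 4.3.3, after TMM scaling and the filterByExpr filter, over 18438 genes, with Benjamini-Hochberg adjustment over all of them and a threshold of 0.05. CPM use TMM library sizes. Replicates follow the labels, which do not say that each is 1 mouse, so p-values measure the spread between these libraries. No libraries were duplicates. The test was checked on simulated data, where 61 of 99 genes changed by 1 on the log2 scale, 33 of 99 changed by 0.5 and 1 of 18005 unchanged genes were called. There 18005 of 18203 genes were unchanged, while 59.5% of genes were called in the real data. The adjustment over all genes was thus stricter in the simulation. Both groups were also drawn with the same spread per gene, while the common biological CV was 10.8% in CTRL and 32.4% in CML 2wk. The rates of the simulation therefore do not carry over to the real data. Alternatives were DESeq2 1.42.0, its size factors, upper-quartile factors, no filter, a replicate block, a threshold of 0.01 and leaving out libraries. Figures used Python 3.11.15 and matplotlib 3.10.9.

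The members and lists were chosen with earlier results of these data known. All 36 members are named, and 1 further gene that the rule holds is not reported here. Of each other list, genes past the threshold without overlap between groups were named, at most the 4 with the largest change, and of marker lists Kit, Ly6a and the highest other marker. Fars2, Ears2, Slc38a2, the eIF2α kinase genes, Cpa3, Col3a1, Xist and Ddx3y were chosen after their values were seen. Lineage, erythroid and B cell lists were also summarised.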

Additional observations from a re-analysis of the deposited data

Results flagged for a closer look

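In groups of 6 libraries, a value was picked out when its distance to the nearest other value exceeded Dixon's 95% critical share of the group's range. Of 72 groups of values (36 genes in both groups of libraries) 14 were picked out, where chance gives about 1 in 20, or 3.6. CML 2wk replicate 6 was the highest of its group in 13 of them, which come from the same library and are not independent of each other.

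Among the synthetases it stood at 83.7 CPM for Cars1 (next library 53.5 CPM), 376 CPM for Eprs1 (next 295), 155 CPM for Sars1 (next 99.8) and 120 CPM for Yars1 (next 82.0). All 4 belong to the synthetases known to respond to ATF4, as do 12 of all 19 synthetases. Among the regulators it stood at 319 CPM for Atf4 (next 178) and 42.7 CPM for Trib3 (next 5.95). For the enzymes of amino acid synthesis it stood at 160 CPM for Asns (next 39.6), 645 CPM for Psat1 (next 343), 95.2 CPM for Psph (next 48.7), 135 CPM for Mthfd2 (next 44.0) and 163 CPM for Aldh18a1. For the cystine and glutathione genes it stood at 50.7 CPM for Slc7a11 (next 18.8) and 15.7 CPM for Chac1 (next 3.00).

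The remaining value was Psph in CTRL replicate 3, at 21.9 CPM beside 19.99 CPM in the next library.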

How the results depend on the processing

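No called member changed sign in any alternative, and 14 of the 17 called members kept their call in every one, the exceptions being Sars1, Atf4 and Atf5. Upper-quartile factors called 9 synthetases higher, with a median log2 fold change of 0.2214. All genes shifted the same way under these factors: more were called higher and fewer lower than in the main fit. Their median was 0.1403, against 0.0667 in the main fit, so the 9 calls are not a change of the synthetases alone. Without a filter on low counts 5 mitochondrial synthetases were higher, and of all genes fewer were called higher and more lower than in the main fit. At an adjusted p under 0.01, 3 mitochondrial synthetases were lower and 6 further ATF4 targets higher. With replicate 6 of both groups left out, 4 synthetases, 2 ATF4 genes and 3 mitochondrial synthetases were lower, and 6 further targets were higher with a median of 0.21. Leaving out 1 library at a time gave 5 to 7 higher and 2 to 4 lower synthetases (medians 0.09 to 0.215), 9 to 13 higher and 0 to 2 lower ATF4 genes (0.46 to 0.83), 6 to 9 higher mitochondrial synthetases, and 8 to 13 higher further targets (0.20 to 0.76). The 4 and 2 lower genes and the medians of 0.09, 0.46 and 0.20 came without CML 2wk replicate 6.

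Replicate numbers did not pair the libraries (correlations of deviations -0.13 to 0.07, with only replicate 1 nearest to its own number). With the replicate block, 7 further targets were higher (median 0.34), and of all genes fewer were called in either direction than in the main fit. Leaving out CML 2wk replicates 2 and 4 was chosen after seeing the data.

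Sign changed only for uncalled values. Aars1 was at -0.037 without a filter and -0.0966 without replicate 6 of both groups, and at -0.1147 to 0.1022 with 1 library left out. Pycr1 was at -0.0441 without replicate 6 of both groups and at -0.0168 to 0.3751 with 1 library left out. Trib3 was at -0.0585 without replicate 6 of both groups. Aldh18a1 was at 0.032 with upper-quartile factors, 0.0408 without CML 2wk replicates 2 and 4 and -0.229 to 0.0141 with 1 library left out. The cause was not tested. Chac1, Cth and Stc2 are limited by depth in CTRL.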

Other observations

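The genes upstream of ATF4 moved in both directions. Of 14 genes for eIF2α kinases, eIF2 and its exchange factor, 7 were higher (50%, against 30.6% of all genes) and 5 lower (35.7%, against 29.0%). Eif2s2 was at 122 to 153 CPM in CTRL and 321 to 561 CPM in CML 2wk (log2 fold change 1.51, SE 0.124, edgeR adjusted p = 1.93e-07), and Eif2s1, the subunit that the kinases phosphorylate, was at 119 to 153 CPM and 282 to 454 CPM (1.40, SE 0.11, adjusted p = 1.43e-07). Eif2b3, of the exchange factor, had a value of 0.83. Gcn1, the co-activator of the kinase that senses uncharged tRNA, was lower without overlap (-0.86, SE 0.0807, adjusted p = 5.79e-07). All 4 kinase genes were lower, with values of -0.68 for Eif2ak2 (PKR), -0.45 for Eif2ak3 (PERK), -0.40 for Eif2ak1 (HRI) and -0.32 for Eif2ak4 (GCN2), the last with overlap. mRNA levels say nothing of kinase activity.

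All 10 genes of the ATF6 and IRE1 branches, which include chaperones and folding enzymes of the endoplasmic reticulum, were higher, against 30.6% of all genes. Their median was 0.75, and 6 of them were without overlap, against 17% of all genes in the higher direction. Sdf2l1 had a log2 fold change of 1.63 (SE 0.151, adjusted p = 5.37e-07), Hspa5 (BiP) of 1.54 (SE 0.155, adjusted p = 1.10e-06), Manf of 1.30 and Calr of 0.94.

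Erythroid markers were lower for 6 of 7 genes (85.7%), mature lineage markers for 3 of 5 (60%) and B cell markers for 2 of 6 (33.3%), with none higher. Of all genes tested 29.0% were lower and 30.6% higher. Stromal markers were higher for 4 of 6 genes tested (66.7%), among them Col3a1 (5.58, SE 1.69, adjusted p = 0.0108), whose CML 2wk range was 0 to 275 CPM. These calls rested on CML 2wk replicates 2 and 4, where Col3a1 was at 275 and 78.5 CPM. Its median was 0.331 CPM in CML 2wk and 0.891 CPM in CTRL. The CML 2wk median was also below that of CTRL for Col1a1 and Col1a2, and above it for Sparc.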
